A study of Homo sapiens with 45 samples.

Results

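The comparison described here is SK-N-BE(2)C cells after 24 h of palbociclib (PB) against SK-N-BE(2)C control cells. SK-N-BE(2)C is a clonal subline of a human neuroblastoma cell line with *MYCN* amplification and loss of 1p, and it is of the adrenergic (ADRN) type. The 24 h group received 1 μM PB in DMEM/F12 with 10% FBS, the control group is labelled as control and was collected with the 24 h group, and all libraries come from this 1 clonal line. Each group holds 5 replicates (separate passages, each plated as its own experiment), and 10 of the 45 libraries of the series enter the comparison. The series also holds SK-N-BE(2)C after 7 d of PB and control, 24 h and 5 d arms of IMR-32 and SH-SY5Y, which are other human neuroblastoma lines. Members of the comparison are all genes with enough counts, which were 14055 of the 29159 genes in the count table.

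PB is an inhibitor of the cyclin-dependent kinases CDK4 and CDK6. Cyclin D bound to these kinases phosphorylates the pocket protein RB, which releases E2F factors and lets them switch on the genes of DNA replication. In cells that leave the cycle, the related pocket proteins p107 and p130 join E2F4, a DP partner and the MuvB core in the DREAM complex, which represses E2F sites in replication genes and CHR elements in genes of mitosis. In neuroblastoma a core regulatory circuit (CRC) of transcription factors that includes HAND2 and GATA3 holds the cells in a sympathoadrenal progenitor state, and slower cycling is one of the features of neuronal differentiation.

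The 10 libraries held between 13459219 and 25441812 counts. Control replicates 3, 4 and 5 were closer to each other than any other control pair, and the same was true at 24 h. The variance of standardised count differences (1 where only counting noise separates a pair) was 2.43 to 3.18 among these 3 in the control group and 1.69 to 2.42 at 24 h, against 7.05 to 23.6 in the other pairs. The counts of calls are therefore also given with replicates 3 to 5 summed into 1 library and with replicates 1 and 2 alone. The adrenergic identity of the line was visible in the markers. All 8 adrenergic markers passed the count filter, with a summed level of 5322 to 6611 CPM (counts per 1000000 counts of the library) in control libraries and 7318 to 8147 CPM at 24 h, against 585 to 800.1 and 462.2 to 688.8 CPM for 7 mesenchymal markers. *MYCN* alone gave 3325 to 4428 CPM of the adrenergic sum in control and 4427 to 5100 CPM at 24 h, and the other 7 adrenergic markers summed to 1966 to 2229 CPM and 2812 to 3048 CPM. Immune and endothelial markers summed to 1.545 to 3.194 CPM in control and 2.28 to 3.25 CPM at 24 h, with medians of 0 for *PTPRC* and *PECAM1*.

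At 24 h, 1528 genes rose (10.9% of those tested) and 1494 fell (10.6%). A gene is said to rise or fall where its adjusted p in edgeR's quasi-likelihood test with Benjamini-Hochberg adjustment was under 0.05 and its log2 fold change was beyond 0.5 in either direction. The falls went deeper than the rises. Of the genes called, 592 fell and 478 rose by more than 1 on the log2 scale, 150 fell and 39 rose by more than 2, and 43 fell and 3 rose by more than 3. The median log2 fold change of all tested genes was 0.02. In 5522 genes (39.3%) the CPM of the 5 treated libraries and the 5 control libraries did not overlap. With replicates 3 to 5 summed, 1179 genes rose and 1392 fell, and with replicates 1 and 2 alone 575 rose and 848 fell. Of the 3022 genes called in all libraries, 2461 and 1368 were called in these fits, and none changed direction. Of the 669 lncRNA genes tested, 110 rose and 54 fell.

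**Figure D1:**
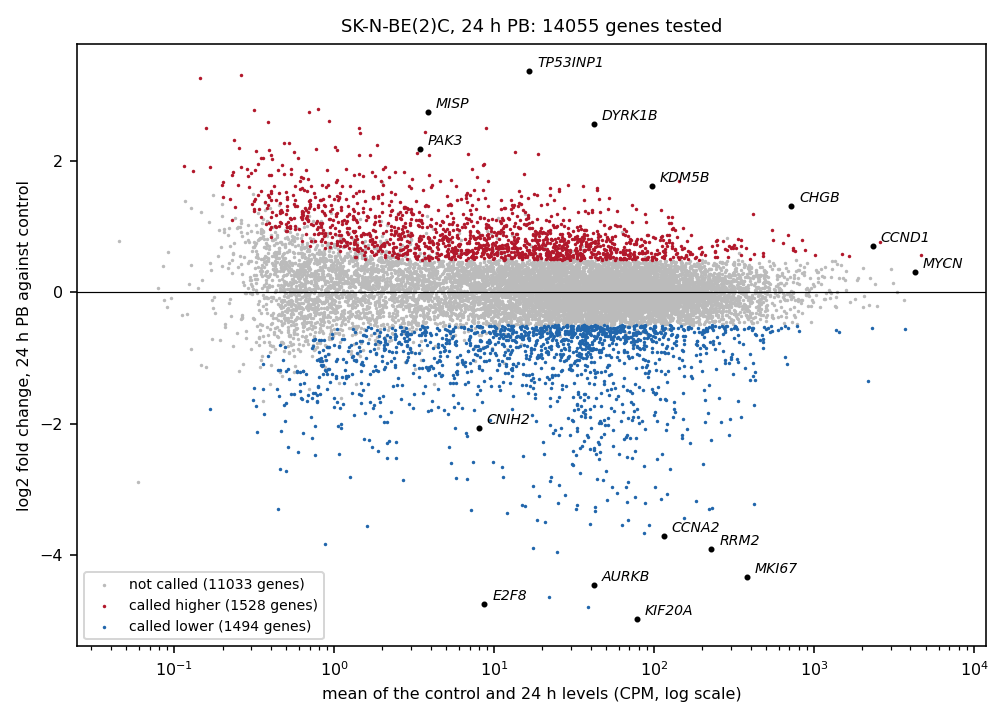
Log2 fold change at 24 h of PB against control (y axis) by mean level over the 10 SK-N-BE(2)C libraries (x axis, CPM, log scale), with 1 point for each of the 14055 genes tested; coloured points are the 1528 genes that rose and the 1494 that fell. The genes with the deepest falls lie near −5, while only 3 rises exceed 3.

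In the text a fold change is the difference, on the log2 scale, between 24 h of PB and control, ± its standard error with n = 5 in each group, and levels are CPM of the library total. *KIF20A* (chr5:137514408-137523412 in the GRCh37 build, which is hg19), a kinesin of the central spindle needed for cytokinesis, had 157, 156, 147, 150.0 and 146 CPM in control replicates 1 to 5 and 7.29, 5.896, 3.56, 3.904 and 3.49 CPM in the 24 h replicates. All treated libraries lay far below all control libraries, and replicates 1 and 2 kept the highest treated values. Its fold change was −4.98 ± 0.43 (adjusted p = 3.54e-07). *E2F8* (chr11:19245610-19263167), an atypical E2F that represses transcription and is itself an E2F target, had 15.97, 17.3, 16.9, 16.8 and 16.6 CPM in control and 1.299, 0.865, 0.362, 0.167 and 0.3395 CPM at 24 h. The groups did not overlap, and the treated values were near the limit of detection. Its fold change was −4.76 ± 0.48 (adjusted p = 1.42e-06). In bulk RNA, fewer cells of a type or cycle phase and less RNA per cell cannot be told apart.

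*IQGAP3*, a scaffold protein found in proliferating cells, went from 74.3 ± 5.5 to 2.696 ± 0.49 CPM (mean ± SD), with a fold change of −4.801 ± 0.38 (adjusted p = 1.58e-07). *CDCA3*, an adaptor for degradation of the mitotic inhibitor WEE1, changed by −4.65 ± 0.20 (adjusted p = 6.39e-11). *AURKB*, the kinase of the chromosomal passenger complex, had 91.1, 80.5, 73.8, 77.6 and 79.8 CPM in control and 5.29, 4.95, 2.77, 2.96 and 2.42 CPM at 24 h. Every treated library was below every control library for each of these 3 genes, and the fold change of *AURKB* was −4.46 ± 0.39 (adjusted p = 4.84e-07). No overlap of the groups is a condition of the rule that named the 15 largest falls, *KIF20A*, *E2F8* and *MKI67* among them. *MKI67*, which encodes the proliferation marker Ki-67, had 626, 818, 762, 700.0 and 696 CPM in control and 57.04, 48.6, 25.3, 24.6 and 24.4 CPM at 24 h. Its treated values formed 2 levels, with replicates 1 and 2 above replicates 3 to 5, and its fold change was −4.35 ± 0.55 (adjusted p = 1.47e-05). The other genes among the 15 largest falls were *CENPA*, *RRM2*, *E2F7*, *CCNA2*, *TYMS*, *DLGAP5*, *BIRC5*, *KIF2C* and *FAM111B*, with fold changes from −3.96 to −3.502.

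The largest rises were in genes of several kinds. *TP53INP1* (chr8:95938200-95961606), a stress-induced protein of autophagy, had 1.78, 1.93, 3.59, 3.42 and 3.62 CPM in control and 25.4, 24.96, 34.02, 34.4 and 31.4 CPM at 24 h. The groups were separated by a wide gap, and in both of them replicates 1 and 2 were the lowest. Its fold change was 3.38 ± 0.18 (adjusted p = 1.56e-09), and exons on the opposite strand cover 225 of its bases. *DYRK1B* (chr19:40315990-40324841), a kinase that holds cells in quiescence, had 12.3, 8.78, 13.4, 11.96 and 13.03 CPM in control and 69.8, 68.1, 76.4, 74.4 and 72.4 CPM at 24 h. The 5 treated values lay close together and far above the control values, and the fold change was 2.57 ± 0.085 (adjusted p = 5.33e-12), which shared the smallest adjusted p of the comparison with *KDM5B* and *TIMELESS*.

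*MISP*, an actin-binding protein of the spindle cortex, rose from 0.9703 ± 0.19 to 6.71 ± 1.3 CPM, with a fold change of 2.75 ± 0.31 (adjusted p = 2.70e-06). *PGAM2*, the muscle form of phosphoglycerate mutase, changed by 2.51 ± 0.17 (adjusted p = 1.16e-08), and *NPBWR2*, a neuropeptide receptor, by 2.46 ± 0.32 (adjusted p = 1.19e-05). Treated and control libraries did not overlap in any of the 15 largest rises, which is a condition of the rule that named them. *PAK3*, a kinase of dendritic spines, changed by 2.18 ± 0.29 (adjusted p = 1.24e-05), *PIK3IP1*, an inhibitor of PI3-kinase, by 2.14 ± 0.29 (adjusted p = 2.60e-05), and *SLC35D2*, a nucleotide sugar transporter, by 2.11 ± 0.11 (adjusted p = 5.28e-10). The rest were *PLPPR3*, *LMTK3*, *BBC3*, *SDSL*, *ZNF556*, *KCND1* and *KCNN1*, with fold changes from 2.09 to 1.71, and outside *DYRK1B* the highest treated value among the 15 was 34.4 CPM, in *TP53INP1*.

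**Figure D2:**
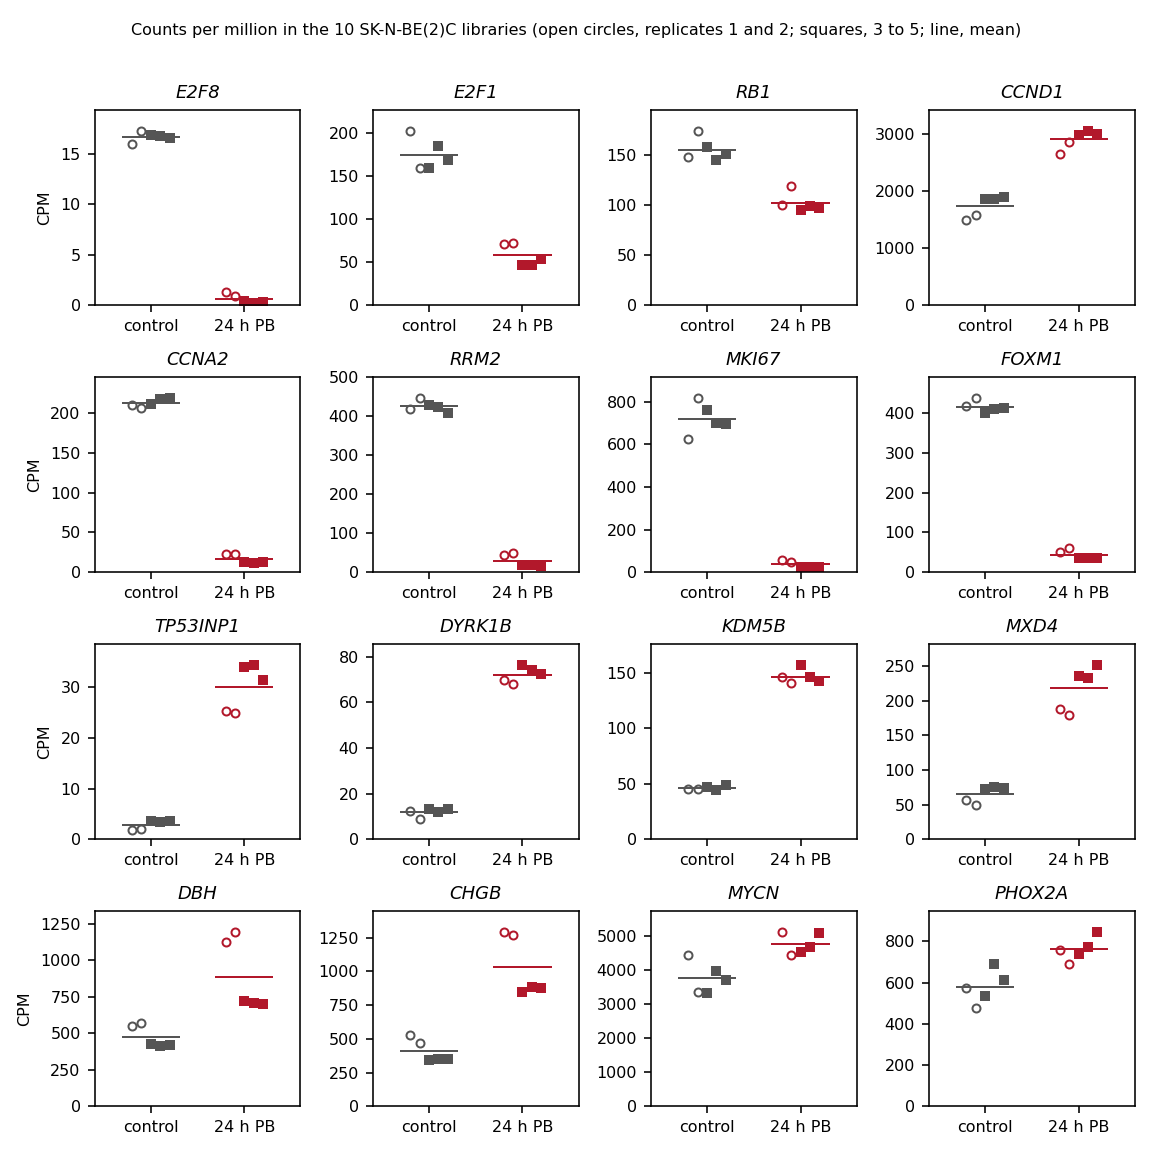
Level (y axis, CPM, from 0) of selected genes in the 5 control and 5 24 h PB libraries of SK-N-BE(2)C, 1 panel per gene, with a point per library and a line at the group mean. Each panel except that of *MYCN* shows control and treated points that do not overlap; replicates 1 and 2 are marked apart from replicates 3 to 5.

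Transcripts of the kinases that PB binds moved by less than the size of a call. *CDK4* had 374 to 332 CPM on average and a fold change of −0.20 ± 0.065 (adjusted p = 0.0177), and *CDK6* had 279 to 356 CPM and 0.32 ± 0.19 (adjusted p = 0.192), and neither passed both limits. *CCND1*, the cyclin D that activates these kinases, was the only one of 7 tested members of this list to rise. It had 1493, 1572, 1857, 1865 and 1899 CPM in control and 2650.0, 2856, 2982, 3057 and 2999 CPM at 24 h. No treated library was as low as any control library, and the fold change was 0.71 ± 0.070 (adjusted p = 5.84e-07). *CCND3*, a second cyclin D, fell from 65.1 ± 1.6 to 34.5 ± 3.8 CPM (−0.95 ± 0.10, adjusted p = 1.41e-06). Among the pocket proteins, *RB1* fell (−0.64 ± 0.091, adjusted p = 2.85e-05) and so did *RBL1*, which encodes p107 (−1.94 ± 0.13, adjusted p = 1.06e-08), while *RBL2*, which encodes p130, had a fold change of −0.079 ± 0.067 (adjusted p = 0.355). The median of the list was −0.20.

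Of 7 tested CDK inhibitor genes, 5 fell and none rose (71.4% and 0%, beside 10.6% and 10.9% of all genes tested), with a median of −1.40. *CDKN2C*, which encodes the CDK4/6 inhibitor p18, had 60.6, 69.99, 71.01, 79.4 and 72.1 CPM in control and 10.4, 13.9, 15.9, 13.1 and 15.3 CPM at 24 h. Every treated library was below every control library, and the fold change was −2.397 ± 0.12 (adjusted p = 5.28e-10). *CDKN3*, a phosphatase that acts on CDK2, changed by −2.88 ± 0.28 (adjusted p = 1.01e-06), and *CDKN2D*, which encodes p19, by −1.399 ± 0.14 (adjusted p = 7.65e-07). *CDKN1B*, which encodes p27, fell by a smaller amount (−0.62 ± 0.081, adjusted p = 1.16e-05). *CDKN1A*, which encodes p21, had 13.1, 12.8, 6.94, 5.87 and 6.76 CPM in control and 3.996, 4.599, 2.59, 1.39 and 1.75 CPM at 24 h. In both groups replicates 1 and 2 were above replicates 3 to 5, the groups did not overlap, and the fold change of −1.69 ± 0.53 (adjusted p = 0.0174) did not pass without replicate 5 of every group (adjusted p = 0.053) or without the count filter (0.0527). *CDKN2B* (0.49) and *CDKN2A* (−0.13), which encode p15 and p16, did not pass both limits, but *CDKN2B* did, with 0.51 to 0.53, without control replicate 4, control replicate 5, 24 h replicate 1, or replicate 1 or 4 of every group, and with the library total alone, and it reached 0.5004 with replicates 3 to 5 summed.

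Of 10 E2F and DP genes, 5 fell and 2 rose (50% and 20%, beside 10.6% and 10.9% of all genes tested), with a median of −0.53. The deepest falls were in *E2F8*, *E2F7* and *E2F2*. *E2F2*, an activator E2F, had 60.3, 65.7, 53.1, 59.4 and 56.6 CPM in control and 10.8, 9.905, 2.895, 3.68 and 4.12 CPM at 24 h. The treated libraries were all below the control libraries, with replicates 1 and 2 higher than the rest, and the fold change was −3.23 ± 0.56 (adjusted p = 0.000248). *E2F1*, another activator, changed by −1.62 ± 0.20 (adjusted p = 1.13e-05), while the activator *E2F3* had a fold change of −0.052 ± 0.056 (adjusted p = 0.471). *E2F7*, the partner of E2F8, changed by −3.898 ± 0.51 (adjusted p = 2.31e-05). *E2F4*, the repressor E2F of DREAM, had −0.13 ± 0.061 (adjusted p = 0.0987) and *E2F6* had −0.10 ± 0.061 (adjusted p = 0.171), and both overlapped between the groups. *TFDP1*, the main DP partner, fell (−0.93 ± 0.086, adjusted p = 3.07e-07), and *TFDP2*, the other DP partner, rose (0.63 ± 0.063, adjusted p = 7.55e-07) together with *E2F5* (0.55 ± 0.084, adjusted p = 5.66e-05), which had 0.49 without control replicate 3. From replicates 1 and 2 alone 1 gene of this list rose and 4 fell.

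Genes that run the passage from G1 to S were nearly all lower. Of 14 tested, 13 fell (92.9%, beside 10.6% of all genes tested), with a median of −1.66. *CCNA2*, cyclin A, had 209.9, 206, 212, 218 and 219 CPM in control and 22.9, 22.8, 12.6, 11.8 and 12.3 CPM at 24 h. The control values spanned a narrow range that the treated values did not approach, and the fold change was −3.71 ± 0.40 (adjusted p = 3.25e-06). *CCNE2*, a cyclin E, changed by −3.099 ± 0.47 (adjusted p = 7.67e-05), *CDT1*, which licenses origins, by −2.88 ± 0.21 (adjusted p = 4.53e-08), and *CDK2*, the partner of both cyclins, by −2.37 ± 0.32 (adjusted p = 2.93e-05). Of the DREAM and MuvB list, 7 of 9 fell (77.8%), with a median of −0.95. *MYBL2*, which encodes the B-MYB that replaces the pocket proteins on MuvB in cycling cells, went from 401 to 41.4 CPM (−3.299 ± 0.50, adjusted p = 7.88e-05). *FOXM1*, the factor that acts with it on genes of mitosis, changed by −3.29 ± 0.26 (adjusted p = 1.89e-07), and *MYB* and *MYBL1*, relatives of B-MYB, by −3.56 and −2.53. The MuvB subunit genes *LIN52*, *LIN54* and *RBBP4* also fell, by less (−0.95, −0.53 and −0.52).

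Of 46 genes of the replication origin and fork, 40 fell and none rose, with a median of −1.37. The shares were 87% and 0%, beside 10.6% and 10.9% of all genes tested. *CLSPN*, which encodes the checkpoint mediator claspin, had 49.9, 61.4, 63.2, 62.7 and 58.1 CPM in control and 7.64, 10.5, 4.28, 3.29 and 4.17 CPM at 24 h. Treated libraries were all lower, replicates 1 and 2 less so, and the fold change was −3.31 ± 0.38 (adjusted p = 6.58e-06). *PCNA*, the sliding clamp, changed by −2.61 ± 0.31 (adjusted p = 8.92e-06), *GINS2*, a subunit of the replicative helicase, by −2.85 ± 0.27 (adjusted p = 1.00e-06), and *LIG1*, the ligase of Okazaki fragments, by −2.76 ± 0.19 (adjusted p = 1.98e-08). The genes of the MCM helicase *MCM2* to *MCM7* fell by amounts between those of *MCM3* (−1.06) and *MCM7* (−1.71). The genes for the single-strand binding protein RPA fell by less, with −0.57 for *RPA1* and −0.63 for *RPA2*.

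Of 27 genes of nucleotide supply, 11 fell and none rose (40.7% and 0%, beside 10.6% and 10.9% of all genes tested), with a median of −0.25. *RRM2*, the regulated subunit of ribonucleotide reductase, had 419, 447, 430.4, 423 and 408 CPM in control and 43.3, 48.5, 17.4, 17.1 and 16.8 CPM at 24 h. At 24 h replicates 1 and 2 stood well above replicates 3 to 5, and all were below control. Its fold change was −3.91 ± 0.59 (adjusted p = 7.65e-05). *TYMS*, thymidylate synthase, changed by −3.67 ± 0.41 (adjusted p = 4.24e-06), and *TK1*, thymidine kinase, by −3.48 ± 0.48 (adjusted p = 3.40e-05). *RRM1*, the other subunit of ribonucleotide reductase, changed by −1.55. Exons of a gene on the opposite strand overlap 1160 bases of *TYMS*, and the sources used here do not say how the counting treated strand.

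Every tested gene of the kinetochore, centromere and spindle list fell (48 of 48, median −2.20), as did 24 of 25 mitotic kinases and cyclins (median −2.16). Over all genes tested 10.6% fell. *CENPA*, the histone variant of centromeres, had 54.6, 48.7, 44.1, 42.05 and 40.8 CPM in control and 4.096, 4.402, 2.11, 1.78 and 2.47 CPM at 24 h. Replicates 1 and 2 were the highest in both groups, and the groups did not overlap. Its fold change was −3.96 ± 0.40 (adjusted p = 1.97e-06). *KIF2C*, a kinesin that takes microtubules apart, changed by −3.54 ± 0.31 (adjusted p = 3.93e-07), *PLK1*, a kinase of mitotic entry, by −3.43 ± 0.38 (adjusted p = 3.98e-06), *BIRC5*, which encodes survivin, by −3.54 ± 0.31 (adjusted p = 4.72e-07), and *UBE2C*, the ubiquitin conjugase of the anaphase-promoting complex, by −3.21 ± 0.32 (adjusted p = 1.51e-06). The shallowest called falls were *MIS18A* (−0.53) among kinetochore genes and *WEE1* (−1.18) among the kinases. In replicates 1 and 2 alone 46 of the 48 kinetochore genes fell, and with replicates 3 to 5 summed all 48 did.

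E2F letters stood in most of the matched promoters of replication genes and CHR letters in most of those of kinetochore genes. RefSeq promoters (built on GRCh38.p14) run from 250 bases before to 50 after the start of a gene, and were matched for 39 of the 46 replication genes and 42 of the 48 kinetochore genes. Each was searched on both strands for GCGGGAA or GCGCGAA, the core of an E2F site, for TTTGAA, the letters of a CHR, and for CCAAT, the box bound by NF-Y. A CHR and a CCAAT box read on the other strand can share a letter at their ends. An E2F core stood in 22 replication promoters (56.4%) and 10 kinetochore promoters (23.8%), against 10.2% of the promoters of 27305 RefSeq genes. CHR letters stood in none of the replication promoters and in 32 kinetochore promoters (76.2%), against 18.2% of all. CCAAT stood in 24 (61.5%) and 29 (69%), against 39.7% of all. The 27305 genes include genes that were not tested here. Over the lists with enough matched promoters, CCAAT shares ran from 30% for axon guidance to 84.6% for histones, with 80.8% for cholesterol genes, of which none fell. E2F shares ran from 0% for the BCL2 family to the 56.4% of the replication genes. Glycolysis (28.6%) and cholesterol genes (26.9%) were above the kinetochore genes in this share. A match to these letters is a description and not a site of binding.

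The promoters of 3 replication genes and 3 kinetochore genes are printed, being those with the largest falls in each list among genes that had 1 RefSeq promoter holding the motif. They are written 5′ to 3′ along the gene's strand, with capitals for E2F cores, CHR letters and CCAAT boxes (a box in the other orientation reads ATTGG). Each was found exactly once in GRCh37, at chr1:36235530-36235829, minus strand for *CLSPN*, chr16:85722511-85722810, minus strand for *GINS2*, chr19:48673552-48673851, minus strand for *LIG1*, chr10:129924638-129924937, minus strand for *MKI67*, chr2:27008674-27008973, plus strand for *CENPA* and chr2:169746891-169747190, minus strand for *SPC25*. The first 3 are of replication genes, the last 3 of kinetochore and spindle genes.
CLSPN: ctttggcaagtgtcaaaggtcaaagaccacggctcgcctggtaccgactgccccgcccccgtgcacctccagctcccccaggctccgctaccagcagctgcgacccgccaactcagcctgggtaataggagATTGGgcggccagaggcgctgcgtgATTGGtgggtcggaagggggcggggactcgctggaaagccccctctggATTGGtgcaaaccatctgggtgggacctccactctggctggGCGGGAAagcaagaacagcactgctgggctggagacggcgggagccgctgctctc
GINS2: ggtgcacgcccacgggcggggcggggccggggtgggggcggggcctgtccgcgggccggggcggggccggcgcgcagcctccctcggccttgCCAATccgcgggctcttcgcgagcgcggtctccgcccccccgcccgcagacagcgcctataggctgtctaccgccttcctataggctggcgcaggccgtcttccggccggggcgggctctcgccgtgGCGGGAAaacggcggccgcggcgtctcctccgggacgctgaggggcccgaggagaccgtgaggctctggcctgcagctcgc
LIG1: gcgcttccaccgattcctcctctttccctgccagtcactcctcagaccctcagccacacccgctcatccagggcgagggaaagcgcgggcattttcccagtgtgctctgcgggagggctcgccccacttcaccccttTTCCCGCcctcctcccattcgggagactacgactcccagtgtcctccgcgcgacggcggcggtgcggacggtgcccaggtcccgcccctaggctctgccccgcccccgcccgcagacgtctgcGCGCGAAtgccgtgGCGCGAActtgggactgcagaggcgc
MKI67: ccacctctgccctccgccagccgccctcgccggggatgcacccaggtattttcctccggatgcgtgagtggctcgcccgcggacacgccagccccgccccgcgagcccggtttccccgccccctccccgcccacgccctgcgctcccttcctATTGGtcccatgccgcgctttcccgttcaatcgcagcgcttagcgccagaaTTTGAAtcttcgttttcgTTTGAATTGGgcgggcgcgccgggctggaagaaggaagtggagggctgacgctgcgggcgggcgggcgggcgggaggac
CENPA: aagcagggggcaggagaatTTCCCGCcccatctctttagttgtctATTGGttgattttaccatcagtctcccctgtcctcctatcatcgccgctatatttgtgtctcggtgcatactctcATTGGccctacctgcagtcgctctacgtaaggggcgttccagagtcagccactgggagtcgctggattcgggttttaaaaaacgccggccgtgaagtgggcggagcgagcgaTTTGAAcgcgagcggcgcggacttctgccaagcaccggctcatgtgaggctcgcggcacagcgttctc
SPC25: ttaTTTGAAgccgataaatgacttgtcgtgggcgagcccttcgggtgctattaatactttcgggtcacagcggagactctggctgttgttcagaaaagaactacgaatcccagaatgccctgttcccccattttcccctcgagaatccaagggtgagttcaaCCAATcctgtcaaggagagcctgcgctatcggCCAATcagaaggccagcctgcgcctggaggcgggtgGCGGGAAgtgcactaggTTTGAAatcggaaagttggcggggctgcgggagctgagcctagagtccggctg
In the *MKI67* promoter a CHR shares its last letter with a CCAAT box on the other strand. *CLSPN*, *GINS2* and *LIG1* hold E2F cores and no CHR letters, while *CENPA* and *SPC25* hold both. *SPC25*, a subunit of the NDC80 complex that grips microtubules, went from 21.8 to 2.12 CPM with a fold change of −3.37.

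DNA repair and checkpoint genes followed the replication genes in direction. Of 40 tested, 33 fell and none rose (82.5% and 0%, beside 10.6% and 10.9% of all genes tested), with a median of −1.32. *NEIL3*, a glycosylase active in S phase, changed by −3.24 ± 0.29 (adjusted p = 3.84e-07), *RAD54L*, a motor protein of recombination, by −2.46 ± 0.21 (adjusted p = 1.44e-07), and *BRCA1* by −2.17. *FANCA*, of the Fanconi anaemia core complex, was among the genes with the smallest p and had 71.7, 75.3, 79.8, 75.4 and 78.9 CPM in control and 20.4, 19.5, 19.7, 21.2 and 20.8 CPM at 24 h. Its treated replicates did not split into the 2 levels seen in *RRM2* or *MKI67*, and its fold change was −1.94 ± 0.073 (adjusted p = 1.74e-11). Exons on the opposite strand cover 2409 of its bases. An E2F core stood in 45.5% of the matched repair promoters.

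Of 34 chromatin assembly and DNA methylation genes, 24 fell and none rose, with a median of −0.83. The shares were 70.6% and 0%, beside 10.6% and 10.9% of all genes tested. *HMGB2*, a chromatin-bending protein of proliferating cells, changed by −3.19 ± 0.24 (adjusted p = 8.41e-08), *CHAF1B*, of the histone chaperone behind the fork, by −2.63 ± 0.38 (adjusted p = 5.17e-05), and *LMNB1*, lamin B1, by −2.22 ± 0.26 (adjusted p = 6.81e-06). *H2AZ2*, a replacement histone, had 236, 227, 250.4, 252 and 245 CPM in control and 102, 92.3, 100.2, 104 and 104 CPM at 24 h. The values within each group lay close together, and the fold change was −1.301 ± 0.044 (adjusted p = 5.67e-12). *EZH2*, the methylase of H3K27, changed by −1.81, and *DNMT1*, the maintenance DNA methylase, by −1.34.

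Of 14 tested histone genes whose transcripts normally end without a polyA tail, 5 rose and 1 fell, with a median of 0.74. The shares were 35.7% and 7.14%, beside 10.9% and 10.6% of all genes tested. *H2AC6* had 5.38, 4.39, 8.83, 7.73 and 7.79 CPM in control and 10.8, 11.4, 24.01, 24.6 and 22.3 CPM at 24 h. All treated libraries were higher, replicates 3 to 5 most, and the fold change was 1.42 ± 0.31 (adjusted p = 0.00165). *H2BC5* changed by 0.91 ± 0.17 (adjusted p = 0.000375), *H2BC8* by 1.39 ± 0.39 (adjusted p = 0.00778) and *H2AC8* by 1.42 ± 0.41 (adjusted p = 0.00919). *H2BC8* did not pass without replicate 4 of every group (adjusted p = 0.054), and with replicates 3 to 5 summed neither *H2BC8* (0.111) nor *H2AC8* (0.0562) passed. *H4C3* was the member that fell (−1.69). These libraries were made from polyA-selected RNA and the genes are near-identical copies whose reads can be split between them, so the values are uncertain. With replicates 3 to 5 summed 2 rose and 2 fell, and with replicates 1 and 2 alone 1 rose.

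At 24 h, replicates 1 and 2 kept more of the cell cycle transcripts than replicates 3 to 5. Both were above all of replicates 3 to 5 in 14 of the 15 largest falls at 24 h and in 6 of the 15 in control. The same order held at 24 h and in control in 25 and 12 of 25 mitotic kinases, 42 and 13 of 48 kinetochore genes, 35 and 11 of 46 replication genes, 12 and 3 of 14 G1 to S genes and 26 and 6 of 40 repair genes. Over all 14055 genes the numbers were 3232 and 2683. The cholesterol and fatty acid synthesis genes differed from this, with 28 of 32 in that order at 24 h and 27 of 32 in control. Taking replicates 1 and 2 alone, the falls numbered 24 of 25 mitotic kinases, 36 of 46 replication genes, 10 of 14 G1 to S genes, 29 of 40 repair genes and 20 of 34 chromatin genes. With replicates 3 to 5 summed they numbered 24, 39, 12, 32 and 24. The part that the relation of replicates 3 to 5 has in this pattern was not tested.

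The genes of quiescence and those linked to FOXO factors rose in part. Of 34 tested, 15 rose and 2 fell (44.1% and 5.88%, beside 10.9% and 10.6% of all genes tested), with a median of 0.39. *CCNG2*, the atypical cyclin G2 of non-cycling cells, had 9.69, 7.59, 10.5, 9.59 and 10.5 CPM in control and 21.4, 21.1, 32.1, 32.2 and 30.6 CPM at 24 h. The treated libraries were all higher, and the fold change was 1.49 ± 0.15 (adjusted p = 6.90e-07). *KLF2*, a factor that holds T cells quiescent, changed by 1.41 ± 0.25 (adjusted p = 0.000248). Others that rose were *YPEL2* (1.05), *KLF9* (0.98), *TXNIP* (0.86), an inhibitor of thioredoxin and glucose uptake, and *HBP1* (0.70), a repressor of cycle genes. *FOXO1* itself (−1.31) and *BCL6* (−1.198) fell. From replicates 1 and 2 alone 7 rose and none fell, and with replicates 3 to 5 summed 13 rose and 1 fell.

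**Figure D3:**
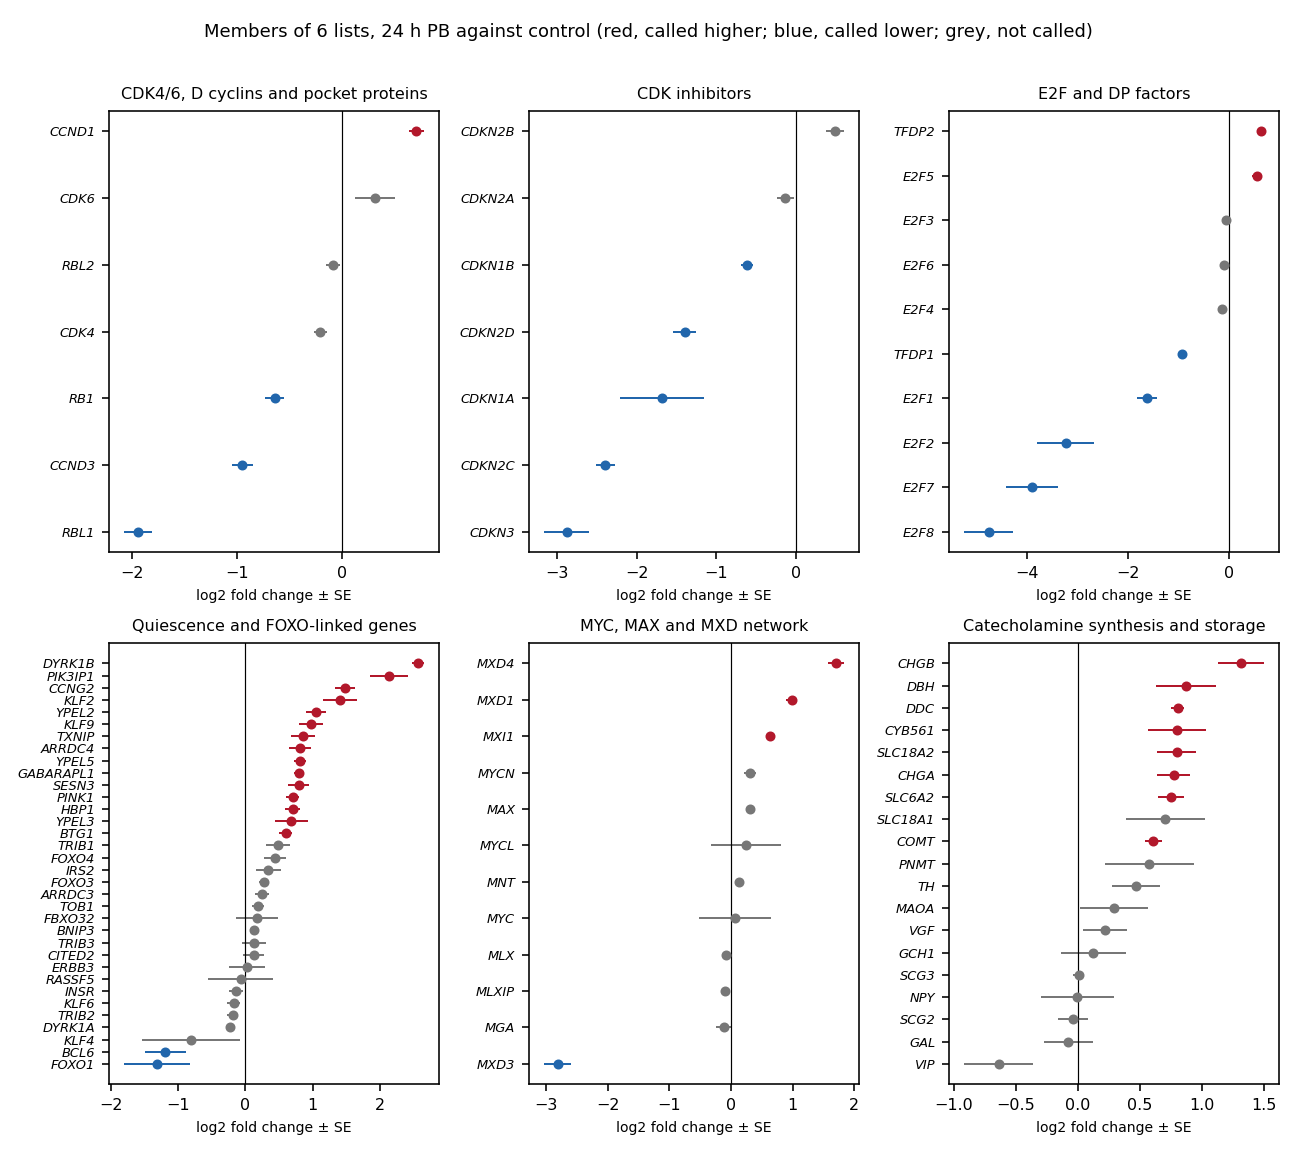
Log2 fold change at 24 h of PB against control (x axis, point with a bar of 1 standard error, n = 5 and 5; red rose, blue fell, grey did not pass) of every tested member of 6 lists: CDK4/6 and pocket proteins, CDK inhibitors, E2F and DP factors, quiescence and FOXO-linked genes, the MYC network and catecholamine genes. *E2F8* lies at −4.76, *DYRK1B* at 2.57 and *MXD4* at 1.70, and the blue points of the CDK inhibitor panel outnumber the rest.

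*MYCN* (chr2:16080672-16087129), the amplified oncogene of the line, had 4428, 3356, 3325, 3952 and 3697 CPM in control and 5100.0, 4427, 4506, 4673 and 5079 CPM at 24 h. The 24 h value was the higher one in 5 of 5 same-numbered pairs, but control replicate 1 lay just above 24 h replicate 2, so the groups overlapped in that 1 library. The fold change of 0.31 ± 0.096 (adjusted p = 0.0145) was below the size needed for a call. In the MYC network 3 of 12 tested genes rose and 1 fell (25% and 8.33%, beside 10.9% and 10.6% of all genes tested). *MXD4*, which competes with MYC for MAX and represses the same sites, had 57.2, 49.9, 72.5, 75.04 and 74.2 CPM in control and 188, 180.3, 236, 234 and 252 CPM at 24 h. The groups were far apart, with replicates 1 and 2 lowest in each, and the fold change was 1.698 ± 0.13 (adjusted p = 6.23e-08). *MXD1* rose (0.99 ± 0.089, adjusted p = 2.20e-07) and so did *MXI1* (0.63 ± 0.074, adjusted p = 3.64e-06), both of the same repressor family, while *MXD3*, the family member found in S phase, fell (−2.81 ± 0.22, adjusted p = 4.45e-08). *MAX* had 0.30 ± 0.044 (adjusted p = 3.58e-05), *MGA* −0.12, *MNT* 0.13, *MLX* −0.084 and *MLXIP* −0.10. *MYC* was below 0.5 CPM in all 10 libraries.

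Few members of 2 lists that MYC factors are known to drive were called, while 10.9% of all genes tested rose and 10.6% fell. Of 35 ribosome biogenesis genes 1 fell, which was *FBL*, the methylase of nucleolar RNA (−0.58 ± 0.094, adjusted p = 0.0001), with a median of −0.06. Of 35 cytosolic ribosomal protein genes 1 rose, which was *RPL3* (0.56 ± 0.10, adjusted p = 0.000318), with a median of 0.26. In 26 of these 35 every treated library was above every control library, against 21.2% of all genes tested, and in none was every treated library below. Among the 35 ribosome biogenesis genes the numbers above and below were 8 and 7. The fold changes of the ribosomal protein list ran from −0.0041 to 0.56. With replicates 1 and 2 alone neither *FBL* (adjusted p = 0.0804) nor *RPL3* (adjusted p = 0.087) passed.

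None of the 16 adrenergic core regulatory factors passed both limits, and their median was 0.12. *HAND2* had 481, 388, 448, 499 and 469 CPM in control and 483, 471, 559, 560.3 and 572 CPM at 24 h, and *GATA3* went from 218 to 254 CPM. The groups overlapped in both, and the fold changes were 0.18 ± 0.070 (adjusted p = 0.0446) and 0.19 ± 0.16 (adjusted p = 0.349). Larger values were those of *TFAP2B* (0.42 ± 0.16, adjusted p = 0.0377), *ISL1* (0.37 ± 0.10, adjusted p = 0.00847), *PHOX2A* (0.37 ± 0.094, adjusted p = 0.00423), *GATA2* (0.35 ± 0.082, adjusted p = 0.00213) and *SOX11* (−0.37 ± 0.11, adjusted p = 0.0118), the last a factor of progenitor cells. *MYCN*, which is counted here too, is described above, and *HAND1*, *TBX2*, *KLF7*, *EYA1*, *ZNF536* and *LMO1* lay between −0.16 and 0.14. Of 8 tested retinoid factors 1 passed (12.5%, beside the 10.6% of all genes tested that fell), the nuclear receptor *RXRA*, and it fell (−0.85 ± 0.15, adjusted p = 0.000291), though not with replicates 1 and 2 alone (adjusted p = 0.131).

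The machinery that makes and stores catecholamines was higher at 24 h in part. Of 19 tested genes 8 rose and none fell (42.1% and 0%, beside 10.9% and 10.6% of all genes tested), with a median of 0.58. *CHGB* (chr20:5892156-5905999), a protein of dense-core granules, had 526, 466, 340.3, 348 and 353 CPM in control and 1290.0, 1271, 848, 885 and 879 CPM at 24 h. Replicates 1 and 2 were the highest in both groups, the groups did not overlap, and the fold change was 1.31 ± 0.18 (adjusted p = 3.19e-05). *DBH*, which makes noradrenaline, went from 477 ± 78 to 890.1 ± 247 CPM (0.87 ± 0.24, adjusted p = 0.00911). *DDC*, which makes dopamine, had 401, 377, 405, 410.4 and 400.0 CPM in control and 698, 708, 723, 702 and 727 CPM at 24 h. It was even across the replicates of each group, and the fold change was 0.80 ± 0.054 (adjusted p = 1.06e-08). *CYB561*, the granule cytochrome, changed by 0.80 ± 0.23 (adjusted p = 0.0119), *CHGA* by 0.77, and the transporters *SLC18A2* and *SLC6A2* by 0.80 and 0.75. In replicates 1 and 2 alone 6 rose, and with replicates 3 to 5 summed 8 rose and 1 fell. *CYB561* (adjusted p = 0.0937) and *DBH* (0.0565) did not pass with replicates 1 and 2 alone. With replicates 3 to 5 alone *CYB561* did not pass either (0.0738). With the replicate block 9 rose and 1 fell.

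Of 18 tested mesenchymal genes 4 fell and 1 rose, with a median of −0.25 (22.2% and 5.56%, beside 10.6% and 10.9% of all genes tested). *WWTR1*, which encodes the Hippo effector TAZ, changed by −1.15 ± 0.27 (adjusted p = 0.00254), and *NOTCH2* by −1.02 ± 0.38 (adjusted p = 0.0374). *COL1A1* (−0.66 ± 0.21, adjusted p = 0.0159) and *ACTA2* (−0.75 ± 0.25, adjusted p = 0.0203) also fell, and *CD44*, the hyaluronan receptor, rose (0.64). *NOTCH2* did not pass without control replicate 1, 3 or 4 or without 24 h replicate 1, 2, 4 or 5 (adjusted p of 0.0504 to 0.12), without replicate 2, 3, 4 or 5 of every group (0.0625 to 0.115) or without the count filter (0.0559). *ACTA2* did not pass without control replicate 3 (0.0569), 24 h replicate 1 (0.052) or replicate 5 of every group (0.11), nor *COL1A1* without replicate 4 (0.0768) or 5 (0.0542) of every group. The adjusted p with replicates 3 to 5 summed was 0.0644 for *ACTA2* and 0.118 for *COL1A1*. With replicates 1 and 2 alone 1 mesenchymal gene rose and none fell. Of 5 tested markers of Schwann, immune and endothelial cells 2 rose, among them *S100B* (1.32 ± 0.31, adjusted p = 0.00228). The summed Schwann markers were 5.003 to 8.219 CPM in control and 9.29 to 13.99 CPM at 24 h, and their part in these results was not tested.

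Of 34 neuronal cytoskeleton and outgrowth genes 7 rose and 2 fell (20.6% and 5.88%, median 0.29), and of 40 synaptic genes 11 rose and 1 fell (27.5% and 2.5%, median 0.39), beside 10.9% and 10.6% of all genes tested. *STMN4*, a neuronal stathmin that binds tubulin, had 2.86, 2.59, 3.59, 3.86 and 3.68 CPM in control and 7.79, 7.47, 10.3, 9.37 and 10.5 CPM at 24 h. Its groups were separate and its fold change was 1.43 ± 0.18 (adjusted p = 8.58e-06). *TUBB4A*, a neuronal tubulin of a multigene family, changed by 1.21 ± 0.17 (adjusted p = 4.06e-05), and *MAP6*, which stabilises microtubules, by 0.99. *STMN1*, the stathmin of proliferating cells, fell (−1.08 ± 0.078, adjusted p = 2.08e-08), and so did *DPYSL5* (−1.02 ± 0.30, adjusted p = 0.011), which did not pass with replicates 3 to 5 summed (adjusted p = 0.0697). Among synaptic genes *SYT3* (1.54 ± 0.23, adjusted p = 4.64e-05), *SYT5* (1.47 ± 0.13, adjusted p = 2.41e-07), both calcium sensors of vesicle release, and *RAB3A*, a vesicle GTPase (1.24 ± 0.16, adjusted p = 1.52e-05), led the rises, and *VAMP1* fell (−0.80). With replicates 1 and 2 alone 5 cytoskeleton genes and 9 synaptic genes rose, and with replicates 3 to 5 summed 5 and 10.

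Of 39 voltage-gated channel genes 14 rose and 3 fell (35.9% and 7.69%, beside 10.9% and 10.6% of all genes tested), with a median of 0.24. *KCND1*, a potassium channel of the A-type current, had 2.903, 3.16, 3.59, 3.64 and 4.05 CPM in control and 10.1, 9.39, 13.99, 14.1 and 12.8 CPM at 24 h. All treated libraries were higher, and the fold change was 1.76 ± 0.16 (adjusted p = 1.93e-07). *KCNN1*, a calcium-activated potassium channel, changed by 1.71 ± 0.21 (adjusted p = 4.63e-06), *CACNA1B*, the N-type calcium channel of nerve endings, by 1.64 ± 0.11 (adjusted p = 7.35e-09), and *CACNG7*, of the auxiliary gamma subunit family, by 1.55 ± 0.21 (adjusted p = 1.85e-05). The sodium channel genes *SCN2A* (0.97) and *SCN3A* (0.64) rose, and *HCN3* (−0.87) fell. With replicates 1 and 2 alone 9 channel genes rose and 1 fell, and with replicates 3 to 5 summed 12 rose and 3 fell. A further 17 of the 56 channel genes found in the table had too few counts to be tested.

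In the receptor and axon guidance lists 8.33% to 15.4% of the tested genes rose and 4.76% to 11.5% fell, beside 10.9% and 10.6% of all genes tested. Of 26 neurotransmitter receptors 4 rose, with *CHRNA7*, a nicotinic subunit (0.90 ± 0.073, adjusted p = 6.83e-08), *GRIK5* (0.87 ± 0.26, adjusted p = 0.0125) and *GRIN1* (0.78 ± 0.14, adjusted p = 0.000322), of the glutamate receptors, at the top, and 3 fell, led by the muscarinic receptor *CHRM2* (−1.303 ± 0.23, adjusted p = 0.000216). Of 21 growth receptors 2 rose and 1 fell, with the replicate block 3 rose and 5 fell, and with replicates 3 to 5 summed 2 rose and none fell. *ERBB2*, the receptor tyrosine kinase HER2, had 0.468, 0.483, 0.749, 0.594 and 0.865 CPM in control and 3.55, 2.398, 3.14, 3.01 and 3.298 CPM at 24 h. The treated values exceeded all control values, and the fold change was 2.25 ± 0.29 (adjusted p = 1.06e-05). *FGFR3*, a receptor of fibroblast growth factors, was the member that fell (−1.17 ± 0.39, adjusted p = 0.0209). Of 36 axon guidance genes 3 rose, led by *SEMA6C* (1.08 ± 0.21, adjusted p = 0.00063), and 4 fell, led by *SLIT2* (−1.27 ± 0.50, adjusted p = 0.0459), *SEMA3C* (−1.11 ± 0.19, adjusted p = 0.000159) and *EFNA2* (−0.84 ± 0.26, adjusted p = 0.0147). Calls were lost for *SLIT2* without control replicate 1, 2 or 5 or any 24 h replicate (adjusted p of 0.0507 to 0.135), without replicate 2, 3, 4 or 5 of every group (0.0644 to 0.146) and without the count filter (0.0784). They were lost for *EFNA2* without control replicate 1 (0.0556) or replicate 3 of every group (0.0524), for *FGFR3* without control replicate 4 (0.0647), 24 h replicate 2 (0.0543) or replicate 5 of every group (0.0638), and for *GRIK5* without replicate 3 (0.0549) or 5 (0.0608) of every group. Summing replicates 3 to 5 also ended the calls of *EFNA2* (0.0776), *FGFR3* (0.0554) and *GRIK5* (0.0619). Of 22 neurogenic factors 3 rose, the repressors *SCRT1* (0.87 ± 0.052, adjusted p = 2.89e-09) and *SCRT2* (0.61) and the zinc finger factor *MYT1* (0.84 ± 0.088, adjusted p = 1.10e-06), and *TCF3*, the E protein partner of bHLH factors, fell (−0.52 ± 0.063, adjusted p = 5.13e-06), with −0.49 without control replicate 1 or 24 h replicate 3 or with the library total alone. With the replicate block 3 neurogenic factors rose and 3 fell. Taking replicates 1 and 2 alone, 2 neurotransmitter receptors rose and 1 fell, 1 growth receptor rose and 1 fell, no guidance gene rose and 3 fell, and 2 neurogenic factors rose and 2 fell. Replicates 3 to 5 alone gave 5 rises and 6 falls among guidance genes, 3 and 5 among growth receptors, and 4 and 2 among neurogenic factors.

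Of 44 splicing factors tested, 13 fell and 6 rose, with a median of −0.36 (29.5% and 13.6%, beside 10.6% and 10.9% of all genes tested). *HNRNPD* was the deepest of the falls (−0.76 ± 0.14, adjusted p = 0.000449), and the others were general factors of the SRSF and HNRNP families, *TRA2B* and *PTBP1*, with fold changes from −0.72 for *SRSF1* to −0.52 for *HNRNPL*. The rises were *CELF5*, *RBFOX1*, *NOVA2*, *SRRM4*, *CELF3* and *CELF4*, which are known as neuronal splicing regulators. These roles were read from the called genes after their values were seen, and the 25 members that did not pass were not sorted by role. *RBFOX1* changed by 1.46 ± 0.34 (adjusted p = 0.0024), *NOVA2* by 1.27 ± 0.15 (adjusted p = 3.61e-06) and *SRRM4* by 0.95 ± 0.13 (adjusted p = 2.55e-05). With replicates 1 and 2 alone 3 rose and 2 fell, and with replicates 3 to 5 summed 4 rose and 12 fell. An E2F core stood in 44.7% of the matched promoters of this list.

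The respiratory chain, cholesterol, glycolysis and lysosome lists held calls in smaller shares than all genes tested, of which 10.9% rose and 10.6% fell. Every treated library was above every control library in 22 of 41 lysosome genes and 13 of 34 respiratory chain genes, against 21.2% of all genes tested, and below in 1 and 2. The numbers above and below were 4 and 3 of 32 for cholesterol genes and 5 and 5 of 32 for glycolysis genes. No gene of the 34 of the nuclear respiratory chain list passed, and 1 of 32 cholesterol and fatty acid genes rose, which was the sterol reductase *TM7SF2* (1.34 ± 0.13, adjusted p = 6.60e-07), and 1 fell with the replicate block. Of 32 glycolysis and hypoxia genes 3 rose, among them *PFKM*, a phosphofructokinase (0.70 ± 0.067, adjusted p = 5.03e-07), and *ALDOC* (0.71 ± 0.22, adjusted p = 0.0145), and *LDHA*, lactate dehydrogenase, fell (−0.83 ± 0.084, adjusted p = 8.02e-07). *ALDOC* did not pass with replicates 3 to 5 summed (adjusted p = 0.0601) or without replicate 2, 4 or 5 of every group (0.0525 to 0.0649). Serine, one-carbon and ATF4 genes leaned down, with 8 of 31 lower, 3 higher and a median of −0.21. *SLC1A4*, a neutral amino acid transporter, had 9.79, 12.2, 9.73, 8.77 and 7.68 CPM in control and 3.35, 4.44, 1.81, 1.896 and 2.86 CPM at 24 h. All treated libraries were lower, and the fold change was −1.76 ± 0.22 (adjusted p = 6.04e-06). *SLC7A11*, the cystine transporter, fell (−1.31 ± 0.14, adjusted p = 1.29e-06) and so did *PHGDH*, the first enzyme of serine synthesis (−1.08 ± 0.12, adjusted p = 3.22e-06), while *DDIT4*, an inhibitor of mTORC1, rose (1.201 ± 0.13, adjusted p = 2.47e-06). Of 41 lysosome and autophagy genes 4 rose, led by *GAA*, acid glucosidase (1.25 ± 0.12, adjusted p = 5.68e-07), *WIPI1* (1.09 ± 0.17, adjusted p = 7.53e-05) and *GRN* (0.71 ± 0.083, adjusted p = 3.36e-06), and *TFEB*, the master factor of lysosome genes, fell (−0.69 ± 0.19, adjusted p = 0.00711). Of 29 chaperones *BAG3* (−0.82 ± 0.11, adjusted p = 1.71e-05) and *HSP90AA1* (−0.54 ± 0.075, adjusted p = 2.25e-05) fell and none rose. From replicates 1 and 2 alone 3 lysosome genes rose and none fell, 1 glycolysis gene rose and 1 fell, 2 serine and ATF4 genes rose and 5 fell, and 1 chaperone fell. Summing replicates 3 to 5 gave 2 rises and 2 falls among glycolysis genes, and replicates 3 to 5 alone gave 1 rise and 2 falls among cholesterol genes and 1 rise and 3 falls among chaperones.

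Of 27 interferon and antigen presentation genes 5 rose and 4 fell (18.5% and 14.8%). In the immediate early, BCL2 and senescence lists given next 3.85% to 14.3% rose and 0 to 7.69% fell, beside 10.9% and 10.6% of all genes tested. *BST2*, an antiviral tether, changed by 1.19 ± 0.42 (adjusted p = 0.027) and *IFI35* by 0.71 ± 0.28 (adjusted p = 0.0474), while *OAS3*, an RNA sensor, changed by −1.28 ± 0.13 (adjusted p = 8.55e-07) and *IRF1* by −0.93 ± 0.29 (adjusted p = 0.0144). *IFI35* did not pass without control replicate 1, 2, 3 or 4 or 24 h replicate 3, 4 or 5 (adjusted p of 0.0579 to 0.126), without any 1 replicate number (0.0603 to 0.143) or without the count filter (0.0689). *BST2* did not pass without control replicate 2, 3 or 5 or 24 h replicate 1, 3 or 5 (0.05 to 0.0737) or without replicate 3, 4 or 5 of every group (0.0527 to 0.109), nor *IRF1* without replicate 5 of every group (0.111). After summing replicates 3 to 5 the adjusted p was 0.182 for *IFI35*, 0.14 for *BST2* and 0.0619 for *IRF1*. With replicates 3 to 5 summed 3 genes of this list rose and 3 fell, and with replicates 1 and 2 alone none rose and 1 fell. The 26 immediate early genes held 1 rise, *DUSP2* (1.39 ± 0.42, adjusted p = 0.0138), and 2 falls, *IER5* (−1.32 ± 0.19, adjusted p = 3.94e-05) and *ATF3* (−0.75 ± 0.15, adjusted p = 0.000694). *DUSP2* did not pass with replicates 3 to 5 summed (adjusted p = 0.0859) or without replicate 3 (0.0554) or 5 (0.0908) of every group, and with the replicate block 2 genes of the list rose. In the BCL2 family 2 of 14 rose and none fell. *BBC3*, which encodes the death-promoting protein PUMA, had 4.92, 1.98, 2.75, 3.64 and 3.95 CPM in control and 10.7, 7.78, 15.8, 15.8 and 17.8 CPM at 24 h. No treated library was as low as a control library, and the fold change was 1.95 ± 0.25 (adjusted p = 1.47e-05). The other was *BOK* (1.26 ± 0.29, adjusted p = 0.00233), which did not pass with replicates 3 to 5 summed (adjusted p = 0.0539). Of 17 genes of the secretory phenotype of senescence *IGFBP3* rose (1.11 ± 0.32, adjusted p = 0.0098) and *PLAUR* fell (−1.24 ± 0.36, adjusted p = 0.00941), which did not pass without replicate 5 of every group (adjusted p = 0.0593), and with the replicate block 1 rose and 2 fell. Taking replicates 1 and 2 alone, no immediate early gene rose and 1 fell, 1 BCL2 gene rose, and no senescence gene passed.

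Genes of the primary cilium, an organelle that non-cycling cells build, held 10 rises and 2 falls in 43 (23.3% and 4.65%, beside 10.9% and 10.6% of all genes tested, median 0.22). *BBS1*, of the complex that carries cargo into cilia, changed by 0.89 ± 0.11 (adjusted p = 4.44e-06), *DYNC2LI1*, of the retrograde motor, by 0.84 ± 0.12 (adjusted p = 3.46e-05), and *IFT43* by 0.69 ± 0.16 (adjusted p = 0.00241), while *SMO*, the Hedgehog transducer, fell (−0.75 ± 0.17, adjusted p = 0.00196). With replicates 3 to 5 summed 8 cilium genes rose and 2 fell, and with replicates 1 and 2 alone 1 rose and 2 fell. Of 19 genes of the ID and BMP group 3 fell (15.8%, beside 10.6% of all genes), *HES6* (−0.73 ± 0.17, adjusted p = 0.00205), *SMAD1* (−0.58 ± 0.11, adjusted p = 0.000366) and *BAMBI* (−0.55 ± 0.14, adjusted p = 0.00505), the last with −0.50 without control replicate 1 and −0.48 without 24 h replicate 2. Of 13 oncofetal genes *PEG10* (−0.85 ± 0.16, adjusted p = 0.000597) and *HMGA1* (−0.71 ± 0.089, adjusted p = 8.12e-06) fell and none rose (15.4% of the list), and with the replicate block 2 fell and 2 rose. From replicates 1 and 2 alone 1 gene of the ID and BMP group and no oncofetal gene fell. Of 13 genes of GD2 synthesis and surface targets 3 rose and 1 fell (23.1% and 7.69%). *DLL3* (0.70 ± 0.17, adjusted p = 0.00386), *GPC2* (0.68 ± 0.17, adjusted p = 0.00371) and *ST3GAL5* (0.52 ± 0.097, adjusted p = 0.000353) rose, and *B4GALNT1*, the synthase of GD2, fell (−0.72 ± 0.19, adjusted p = 0.00532). *ST3GAL5* had 0.44 to 0.49 without control replicate 3 or 4, 24 h replicate 2, or replicate 2 or 4 of every group, and with replicates 3 to 5 summed *GPC2* did not pass (adjusted p = 0.118). With the replicate block 3 of the 13 rose and 2 fell, with replicates 3 to 5 summed 1 rose and 1 fell, and with replicates 1 and 2 alone none passed.

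**Figure D4:**
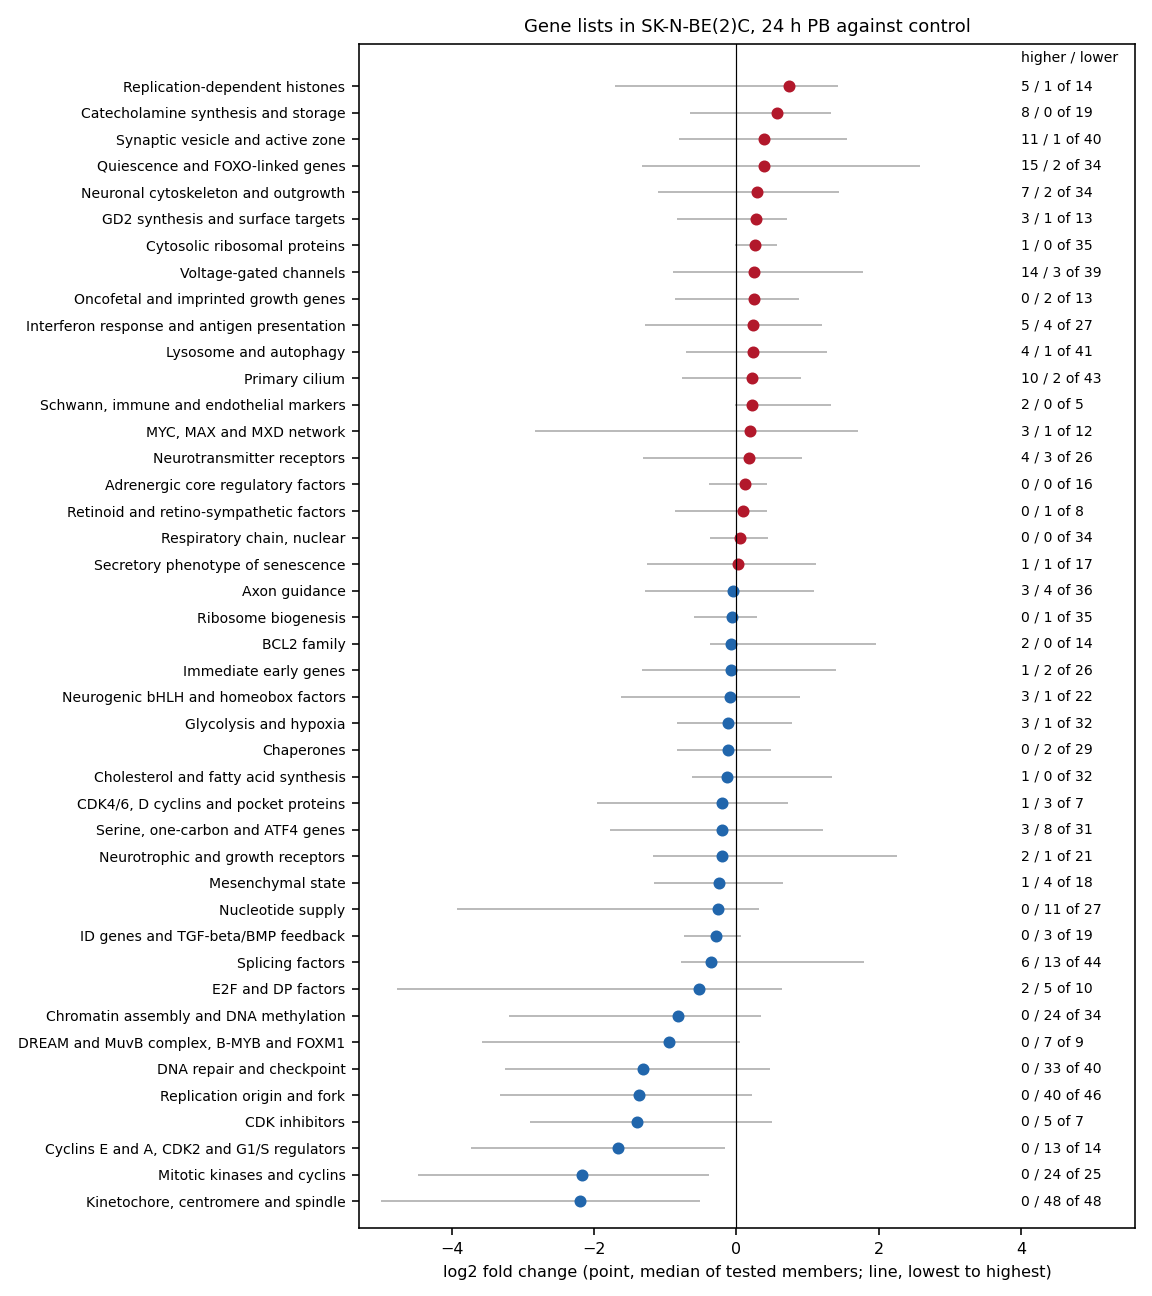
Log2 fold change at 24 h of PB against control (x axis) of the tested members of gene lists (y axis, 1 row per list); the point is the median and the line runs from the lowest to the highest member. Medians run from −2.20 for the kinetochore list to 0.74 for the histone list, against 0.02 for all genes tested.

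Some genes changed by moderate amounts with little spread between replicates. Those given here were named for the 5 smallest p in each direction at 50 CPM or more, a rule that favours little spread. *KDM5B*, a demethylase of H3K4, had 45.6, 45.2, 47.3, 44.3 and 48.9 CPM in control and 146, 141, 157, 146 and 143 CPM at 24 h. The gap between the groups was many times the range within them, and the fold change was 1.63 ± 0.053 (adjusted p = 5.33e-12). *PIK3R2*, a regulatory subunit of PI3-kinase, changed by 1.195 ± 0.066 (adjusted p = 1.47e-09), *RUNDC3A*, a neuronal RAP2 partner, by 1.27 ± 0.054 (adjusted p = 6.38e-11), and *NCKAP5L*, a microtubule-binding protein, by 0.88 ± 0.048 (adjusted p = 1.39e-09). *TIMELESS*, of the fork protection complex, had 191, 181, 220.3, 217 and 212 CPM in control and 58.8, 57.2, 62.97, 60.7 and 64.8 CPM at 24 h, with a fold change of −1.78 ± 0.059 (adjusted p = 5.33e-12). Unlike *MKI67* or *RRM2*, it was no lower in replicates 3 to 5 than in replicates 1 and 2. *NCAPH2*, a condensin II subunit, changed by −1.78 ± 0.063 (adjusted p = 8.77e-12), and *CARHSP1*, an RNA-binding protein, by −1.42 ± 0.054 (adjusted p = 1.74e-11).

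The 24 h response of SK-N-BE(2)C differed from that of IMR-32 in 731 of 16282 genes tested across the lines (4.49%), of which 452 had the higher response in SK-N-BE(2)C and 279 the lower, by the interaction term of edgeR's quasi-likelihood test over 45 libraries. Against SH-SY5Y the difference was called in 332 genes (2.04%), 154 higher and 178 lower. The split depended on the count filter and on the scaling between libraries. Without the count filter it was 519 higher and 111 lower against IMR-32 and 133 higher and 86 lower against SH-SY5Y. With the library total alone it was 606 higher and 180 lower against IMR-32 and 187 higher and 122 lower against SH-SY5Y, with RLE factors in edgeR 530 and 222, and 185 and 123, and with DESeq2 634 and 254, and 259 and 181. With the replicate block the counts were 1121 and 670. Leaving out the libraries of replicate number 2, 3 or 4 left 371, 426 and 407 genes against IMR-32, and leaving out number 1, 2, 3 or 4 left 193, 198, 137 and 144 against SH-SY5Y.

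By the largest difference called against both lines, 12 genes were named, and *TP53INP1*, *CNIH2*, *SNRNP25* and *TMEM88* kept the call against both lines in all 10 alternatives. *TP53INP1* changed by 3.38 in SK-N-BE(2)C, by 1.24 in SH-SY5Y and by 1.504 in IMR-32, with a difference of 1.88 from IMR-32 and 2.11 from SH-SY5Y. Its levels differed between the lines before treatment. IMR-32 had between 25.9 and 46.7 CPM in control and between 102 and 114 CPM at 24 h, and SH-SY5Y between 34.9 and 54.4 CPM and between 91.6 and 117 CPM. The 24 h libraries of SK-N-BE(2)C were below the 24 h libraries of both other lines and within or below the range of their controls. *SLC35D2* changed by 2.11 against 1.37 in SH-SY5Y, a difference that was called in all 10 alternatives. In IMR-32 it had 2 to 6 counts per control library and 0 or 1 per 24 h library, so its call against that line rests on a gene near 0 there and no size is given. *CNIH2*, an auxiliary subunit of AMPA receptors, had 15.2, 11.3, 11.3, 13.8 and 12.9 CPM in control and 3.75, 4.36, 2.29, 2.34 and 2.77 CPM at 24 h. The treated values were all lower, and the fold change of −2.06 ± 0.16 (adjusted p = 5.01e-08) stood against 0.18 in IMR-32 and −0.45 in SH-SY5Y. *SNRNP25*, of the minor spliceosome, fell (−1.49 ± 0.11, adjusted p = 2.17e-08) against −0.33 and −0.34 in the other lines. *TMEM88*, an inhibitor of WNT signalling, fell (−0.75 ± 0.19, adjusted p = 0.00446) and had 1.59 and 1.67 there, from control levels of 0.852 to 1.5 CPM in IMR-32 and 1.27 to 1.67 CPM in SH-SY5Y.

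The other 7 genes lost the call in at least 1 alternative against at least 1 line. *CSRP2* (−1.75 against −0.87 and −0.45), *CNN2* (−1.36 against −0.13 and −0.52) and *ECM1* (−1.16 against 0.68 and 0.088), a smooth muscle LIM protein, a calponin and a matrix protein, had the lower response in SK-N-BE(2)C. *FLT4*, the receptor of lymphatic growth factors, fell in SK-N-BE(2)C (−1.81) by less than in IMR-32 (−3.63) and SH-SY5Y (−3.85), where the 24 h libraries held at most 5 and 3 counts of it, and so did *TEX15* (−0.98 against −2.303 and −3.06). *SMCO4* had −0.38, which is under the size needed for a call, against −1.92 and −2.82. *CCBE1* rose (0.80) against −0.66 and −1.31, and its rise did not pass with replicates 3 to 5 summed (adjusted p = 0.0949) or without replicate 4 (0.0636) or 5 (0.0596) of every group.

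**Figure D5:**
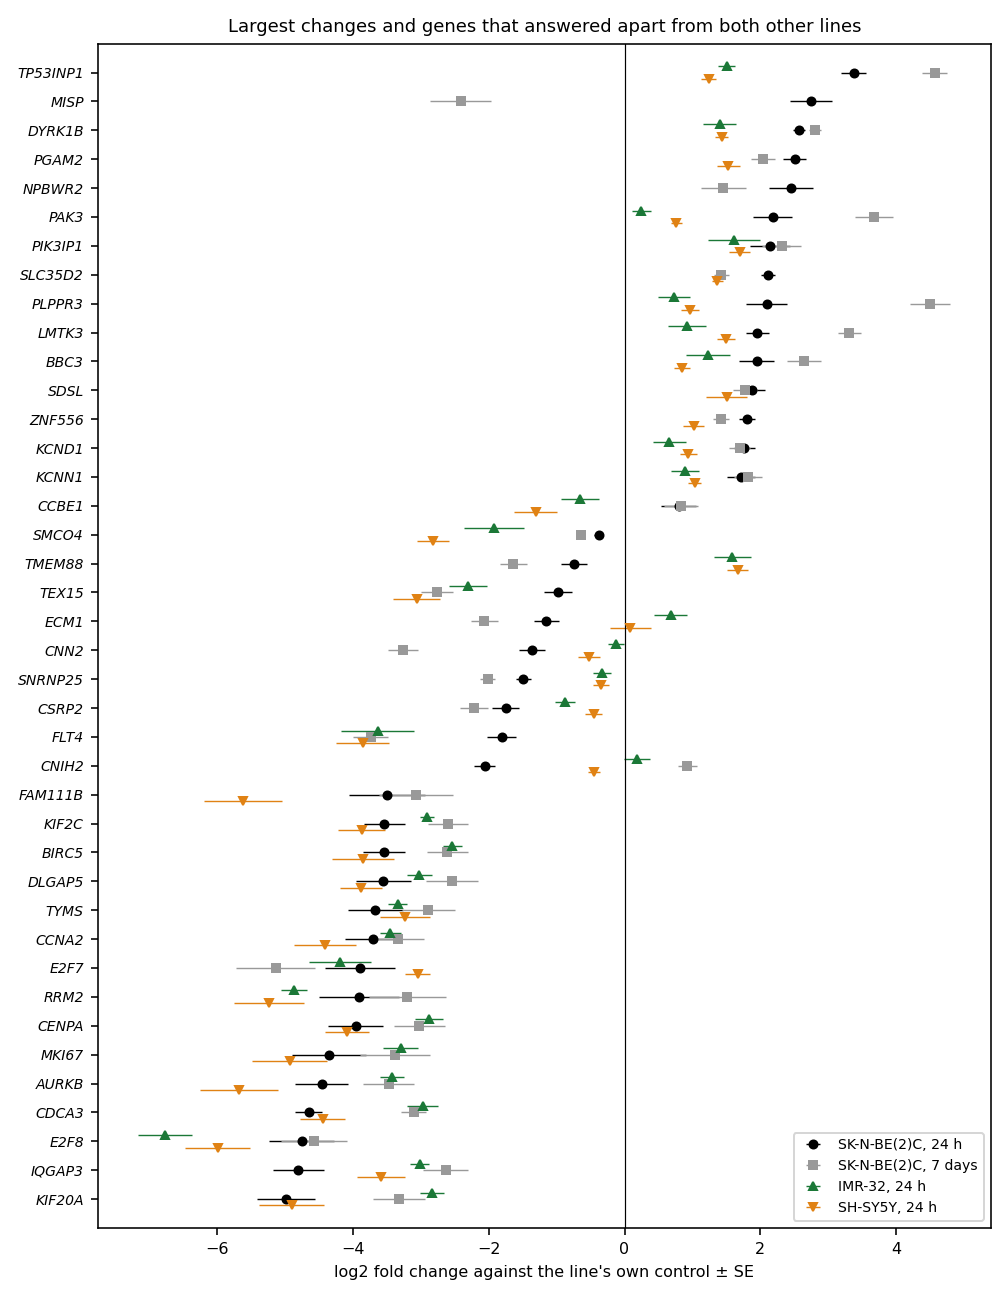
Log2 fold change against each line's own control (x axis, point with a bar of 1 standard error, n = 5 in each group) at 24 h of PB in SK-N-BE(2)C, SH-SY5Y and IMR-32, and at 7 d in the first, for the 15 largest rises, the 15 largest falls and the 12 genes named for their difference from both lines (y axis). *TP53INP1* stands at 3.38 in SK-N-BE(2)C at 24 h against 1.24 in SH-SY5Y, and the 24 h and 7 d points of *MISP* and *CNIH2* lie on opposite sides of 0.

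The 7 d group is compared with the same 5 control libraries, so its values are set beside those of 24 h without a test of their likeness. *CHGB* had a fold change of 1.31 at 24 h and 2.89 at 7 d, *STMN4* 1.43 and 4.19, and *PLPPR3* 2.09 and 4.497. Among cell cycle genes *KIF20A* had −4.98 and −3.33, *AURKB* −4.46 and −3.48, and *E2F8* −4.76 and −4.58. Several genes had opposite signs at the 2 times. *MISP* had 2.75 and −2.41, *CNIH2* −2.06 and 0.93, *BST2* 1.19 and −2.38, and *MYCN* 0.31 and −0.71. *CDKN1A* had −1.69 at 24 h and 0.17 at 7 d. *MYBL1*, which fell at 24 h (−2.53), stood at −0.078 at 7 d.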

How the data were processed

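PolyA-selected RNA from SH-SY5Y, IMR-32 and SK-N-BE(2)C cells (control, 24 h and a later time of 1 μM PB, 7 d in SK-N-BE(2)C and 5 d in the other lines, 5 replicates each) was sequenced in a paired-end run of 100 cycles after a directional library kit. The authors trimmed reads with Trim Galore 0.6.4 (phred score 20), aligned them with STAR to hg19 (GRCh37; the submitters' processing notes give version 2.6.1d and the paper another release) and deposited raw gene counts per library. The sources used here do not say how the counting treated strand, and 88 of 207 named genes share exon bases with a gene on the opposite strand. The overlap is given in the text for a few genes only, and it reached 2805 bases in *IRF1*, 2409 in *FANCA* and 2136 in *B4GALNT1*.

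The 15 SK-N-BE(2)C libraries were fitted together with edgeR 4.0.16 in R 4.3.3 (TMM factors, filterByExpr, robust quasi-likelihood test), and the 24 h group was set against control, with Benjamini-Hochberg adjustment over 14055 genes. Calls needed an adjusted p below 0.05 with a change of more than 0.5 on the log2 scale. Depth, 13459219 to 25441812 counts, sets the precision of low genes. Replicates are described as separate passages of 1 line. Replicates 3 to 5 were much closer to each other than to replicates 1 and 2, and no source used here says whether they share a plating day. The p-values may therefore rest in part on the spread within 1 set. Differences in response between lines used the interaction term of 1 fit of 45 libraries. The scripts were tested on simulated data.

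The genes and lists were chosen with earlier results of these data known. Named were the 15 largest rises and the 15 largest falls among protein-coding genes (no overlap between groups, at least 5 CPM in the higher group), up to 4 called members of each of 44 lists with all members of 5 short lists, the 5 smallest p in each direction at 50 CPM or more, and the 6 genes in each direction with the largest difference from both other lines. Other list members given in the text were named after their values were seen. None of the 13 mitochondrially encoded genes of 1 list was found in the table, and they were not analysed here. The results of a few genes and of 1 gene list are not reported here. Promoters were taken from RefSeq (GRCh38.p14). They were matched for 75.7% of the genes tested, which is under 80%, so shares are given only for lists with a higher coverage.

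Control and 24 h replicates of the same number deviated together from their group means (correlations of 0.51, 0.516, 0.339, 0.243 and 0.291 across genes). Different numbers correlated from 0.247 to 0.428 within replicates 1 and 2 and within replicates 3 to 5, in part above the same numbers, and from −0.452 to −0.282 between these 2 sets. The study plated each replicate as an independent experiment. The numbers were taken to pair the samples, and a fit with a replicate block was made as an alternative. Other alternatives were RLE factors, library size alone, other count filters, DESeq2 1.42.0, other fold limits, the 10 libraries alone, replicates 3 to 5 summed and leaving out each library. Fits of replicates 1 and 2 alone and of replicates 3 to 5 alone were added after seeing the data.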

Additional observations from a re-analysis of the deposited data

Results flagged for a closer look

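In 148 groups of 5 libraries, 8 held a library apart from the other 4 by Dixon's test (critical value 0.71), a test that flags about 1 group in 20 by chance. The control libraries gave *KIF2C* 88.07 CPM in replicate 1 against 68.06 to 72.93 in the others, *PIK3IP1* 3.379 CPM in replicate 2 against 4.916 to 5.539, and *PLPPR3* 3.043 CPM in replicate 1 against 0.6687 to 1.248. At 24 h, replicate 1 had 10.89 CPM of *KCNN1* against 6.915 to 8.052 in the others, and 9.39 CPM of *PLPPR3* against 5.409 to 5.739. The remaining flags are list means on the log2 CPM scale with 0.5 CPM added. Cytosolic ribosomal proteins had 9.508 in 24 h replicate 2 against 9.628 to 9.652, glycolysis and hypoxia genes 6.331 in control replicate 1 against 6.179 to 6.192, and chaperones 8.26 in 24 h replicate 2 against 8.088 to 8.136.

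The 12 genes named for the largest difference in 24 h response from both other lines were picked because the interaction term of edgeR was past the threshold. For *SLC35D2*, which was near 0 counts in IMR-32, the response minus that in SH-SY5Y was 0.7189 on the log2 scale. The response in SK-N-BE(2)C minus that in IMR-32 was 1.879 for *TP53INP1*, 1.828 for *FLT4*, 1.555 for *SMCO4*, 1.458 for *CCBE1* and 1.325 for *TEX15*. It was −2.327 for *TMEM88*, −2.234 for *CNIH2*, −1.83 for *ECM1*, −1.233 for *CNN2*, −1.16 for *SNRNP25* and −0.8835 for *CSRP2*.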

How the results depend on the processing

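Of the 3022 genes called at 24 h, 1528 higher and 1494 lower, no call changed direction under any alternative run. The count stayed within 1.5 times under RLE factors (3023), library size alone (3037), both count filters (3055 and 2857), the 10 libraries alone (3020), DESeq2 (3189), replicates 3 to 5 summed (2571) or alone (3206) and the replicate block (3186), and ran from 2679 to 3099 when libraries were left out. It was 1423 with replicates 1 and 2 alone (575 higher, 848 lower), a fit of fewer libraries. It was 6577 with no fold limit (3338 and 3239), 1070 with a limit of 1 (478 and 592), and 1330 with edgeR's test against the limit of 0.5 (559 and 771). The paired fit, with a replicate block, moved the differences from IMR-32 from 731 to 1121 genes and those from SH-SY5Y from 332 to 670, and moved counts in 8 of 44 lists by over 1.5 times, which stand beside those lists. It changed no call of a named gene. Without the count filter the SH-SY5Y count was 219. Leaving out 1 replicate number gave 371 to 870 genes against IMR-32 and 137 to 319 against SH-SY5Y. The cause of these shifts was not tested. Of 207 named genes, 26 lost the call in at least 1 of 23 alternatives and 1 (*CDKN2B*) gained it. With replicates 1 and 2 alone, which is not among the 23, 57 of 175 called named genes lost the call, 33 of them not lost in the 23, and with replicates 3 to 5 alone 4 did. The medians of 19 of 44 lists moved by more than the spread between libraries in at least 1 of the 23. Depth limits genes near 1 CPM.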
